A study of Mus musculus with 6 samples.

Results

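The genes described here make cholesterol and fatty acids. They were chosen by name: 28 of the 23337 genes counted in the files, of which 21 belong to sterol synthesis and 7 to fatty acid synthesis. All 28 passed the filter on low counts and were tested among 13925 genes. The members cover nearly every step from acetyl units to cholesterol and to monounsaturated fatty acids, together with 4 regulators or carriers of sterols. One of them, Msmo1, stands in the files under its older symbol Sc4mol.

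Cells build both kinds of lipid from acetyl-CoA. The mevalonate pathway makes isoprenoid units that are joined to squalene, closed to lanosterol and trimmed to cholesterol, while fatty acid synthase extends acetyl units that elongases and desaturases then modify. The transcription factors SREBP-1 (gene Srebf1) and SREBP-2 (gene Srebf2) drive most of these genes and are held back in the endoplasmic reticulum by Insig proteins when sterols are plentiful. In the mammary gland this machinery is best known in the luminal cells that secrete milk fat; the basal cells studied here are the contractile outer layer of the epithelium.

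The study compared mRNA of basal epithelial cells between mice with and without functional Vim, the gene of the intermediate filament protein vimentin. Wild-type mice (Vimwt/wt) gave 2 libraries and mice homozygous for the constitutive targeted allele (Vimtm1Cba/tm1Cba) gave 4. All mice were 15 weeks old, of mixed strain 129/Sv X C57BL/6, and each library came from a pool of 2 to 3 mice, with no treatment. Cells were sorted as live, CD45- and CD31-negative, CD24-low and CD49f-high and lysed uncultured (passage p0). Since the deletion was present in the whole animal, the basal cells developed among other cells that lacked vimentin too. The file names carry 1 of 2 day codes, read here as the 2 independent experiments that the labels mention. They put wild type 1, knockout 1 and knockout 2 in experiment 1 and wild type 2, knockout 3 and knockout 4 in experiment 2. Each p-value measures the spread between these pools. In bulk samples fewer cells of a type and less RNA per cell cannot be told apart.

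Total counts per library ran from 25347967 to 31200622, and any pair of libraries correlated at r = 0.970 to 0.989 in log2 CPM across genes. CPM is a gene's count scaled by the library's total, and CPM per kilobase divides it by the gene's exon length. Vim itself stood at 215 and 241 CPM in the wild type and at 92.4 to 111 CPM in the knockout, lower in all 4. Krt14, a basal keratin, stood between 3905 and 4563 CPM in all 6 libraries. Markers of other cells were not at 0. The summed level of 12 luminal markers was 2187 and 2265 CPM in the wild type and 2168 to 2406 CPM in the knockout, so the groups overlapped. Milk genes summed to 306 and 260 CPM in the wild type and 155 to 259 CPM in the knockout (11 genes). Endothelial genes summed to 163 and 67.8 CPM against 44.6 to 58.5 CPM (11 genes). In the last 2 lists every knockout library lay below both wild-type libraries, for milk genes only narrowly (259.0 against 259.6 CPM). Of the 9 milk genes tested, 5 had an unadjusted p under 0.05 and 1 was called, lower in the knockout. Of the 11 endothelial genes, 10 had an unadjusted p under 0.05 and 0 were called. Over all tested genes these shares were 8.57% and 0.079%. The part of both lists in the genotype values given below was not tested. The 14 adipocyte markers summed to 95 and 66 CPM in the wild type and 50 to 81.1 CPM in the knockout, so the groups overlapped. Of the 7 that were tested, 4 had an unadjusted p under 0.05 and 0 were called, and 3 had every knockout library below both wild-type libraries. Among the defining ones, Adipoq never exceeded 0.316 CPM and Plin1 never exceeded 0.134 CPM in any library.

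No member of either group passed the test between knockout and wild type at an adjusted p of 0.05 (edgeR's quasi-likelihood test, Benjamini-Hochberg adjustment over all genes tested). The count was 0 of 21 sterol genes and 0 of 7 fatty acid genes, where 11 of 13925 genes, or 0.079%, were called. At an unadjusted p under 0.05 stood 2 members, Stard4 and Scd1, where 8.57% of all genes did. The median log2 fold change was -0.10 over the sterol genes, with 7 above and 14 below 0. Over the fatty acid genes it was -0.15, with 3 above and 4 below 0, and over all tested genes it was -0.01. A fit that kept the experiment as a block called 1.56% of all genes (217) and again 0 of the 28 members.

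**Figure D1:**
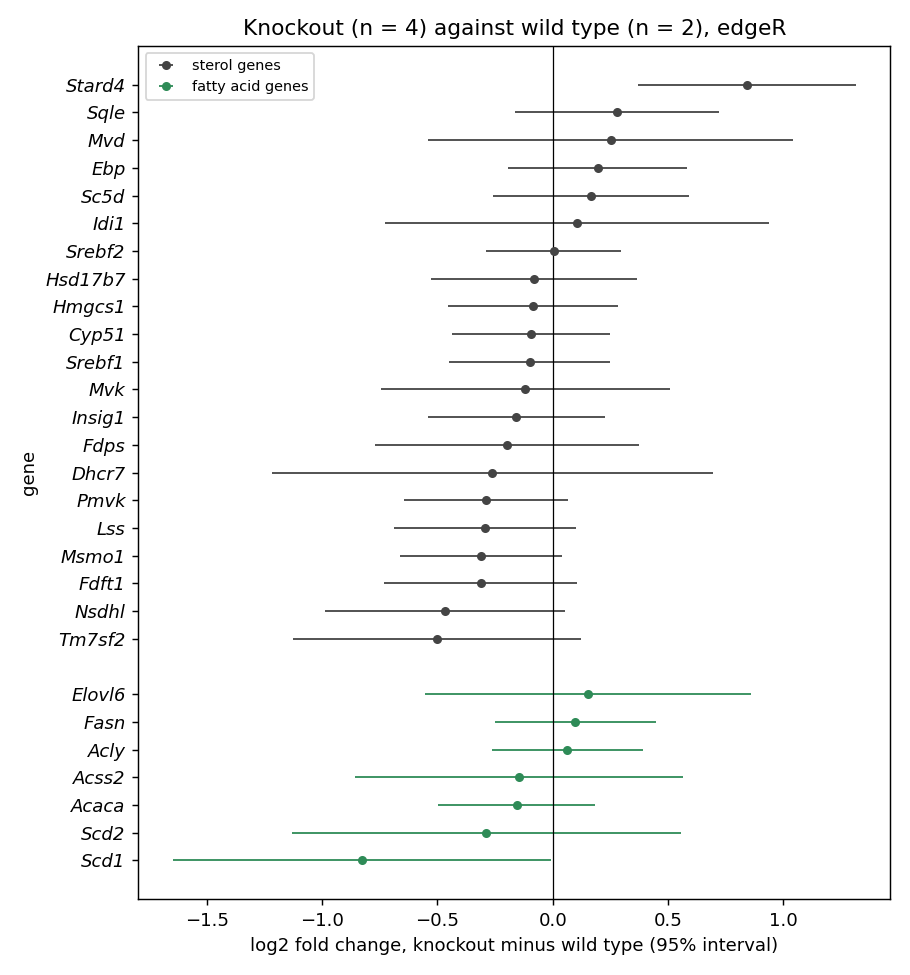
Log2 fold change of each gene in knockout (n = 4) against wild type (n = 2), with its 95% interval from edgeR; sterol genes are above and fatty acid genes below, each ordered by fold change. The fit held genotype only, without the experiment. In it only the intervals of Stard4 (0.37 to 1.32) and Scd1 (-1.65 to -0.01) lie on one side of 0, and neither passed after adjustment over all genes.

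The intervals, from the fit on genotype alone, show which sizes of change these libraries leave possible in that fit. For Srebf2, the main regulator of the sterol genes, the fold change was 1 with a 95% interval of 0.818 to 1.23. For Fasn, the synthase itself, it was 1.07 (0.84 to 1.37), and for Acly, which makes cytosolic acetyl-CoA from citrate, 1.04 (0.832 to 1.31). On the log2 scale the widest interval among the 28 genes belonged to Dhcr7, which carries out the last reduction to cholesterol, at -1.22 to 0.69 (a fold of 0.431 to 1.62). With 2 wild-type pools the data do not tell apart the sizes of change inside an interval. Estimates and SEs shifted when the experiment was kept as a block. The log2 fold change of Sqle was then 0.31 (SE 0.12), against 0.28 (SE 0.19) without the block. For Nsdhl it was -0.47 (SE 0.19, against 0.23 without the block), and for Scd1 -0.74 (SE 0.40), against -0.83 (SE 0.36).

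Levels per kilobase of exon, the scale used here to compare genes, spread widely within the sterol pathway. Reads that matched several places or genes were not counted, so a gene with many such reads stands too low on this scale. Sqle, squalene epoxidase, was the most abundant with a mean over 6 libraries of 64.1 CPM per kilobase and a range of 43.4 to 78.7. Srebf2 followed with 49.9 (43.1 to 55.9) and Msmo1, a sterol C4-methyl oxidase, with 41.0 (32.3 to 52.9). The ranges of these 3 neighbours overlapped. Srebf1 stood at 32.4, Hmgcs1 at 26.7 and Cyp51 at 21.6 CPM per kilobase; the next gene, Sc5d, was at 11.9. The lowest was Idi1, the isopentenyl diphosphate isomerase, with 0.386 CPM per kilobase (0.302 to 0.492), below Tm7sf2 at 1.62 and Mvk at 1.86. Idi1 had 22 to 42 counts per library; its 22 counts in knockout 4 have an exact 95% Poisson interval of 13.8 to 33.3, which covers counting error only.

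Among the fatty acid genes Acly (49.2 CPM per kilobase, 42.1 to 56.4) and Fasn (47.4, 40.8 to 54.9) stood together with overlapping ranges. The desaturases Scd1 (9.29, 5.37 to 18.4) and Scd2 (6.21, 2.90 to 9.08) came next and also overlapped. Acaca, the acetyl-CoA carboxylase that makes malonyl-CoA, stood at 3.46 CPM per kilobase, Elovl6, an elongase, at 1.23 and Acss2, which makes acetyl-CoA from acetate, at 1.17. Acss2 thus stood far below Acly, the other source of acetyl-CoA, as Idi1 stood far below Mvd (10.6) and Fdps (7.05), the enzymes before and after it. Whether uncounted reads that match several places lowered any of these levels was not tested.

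**Figure D2:**
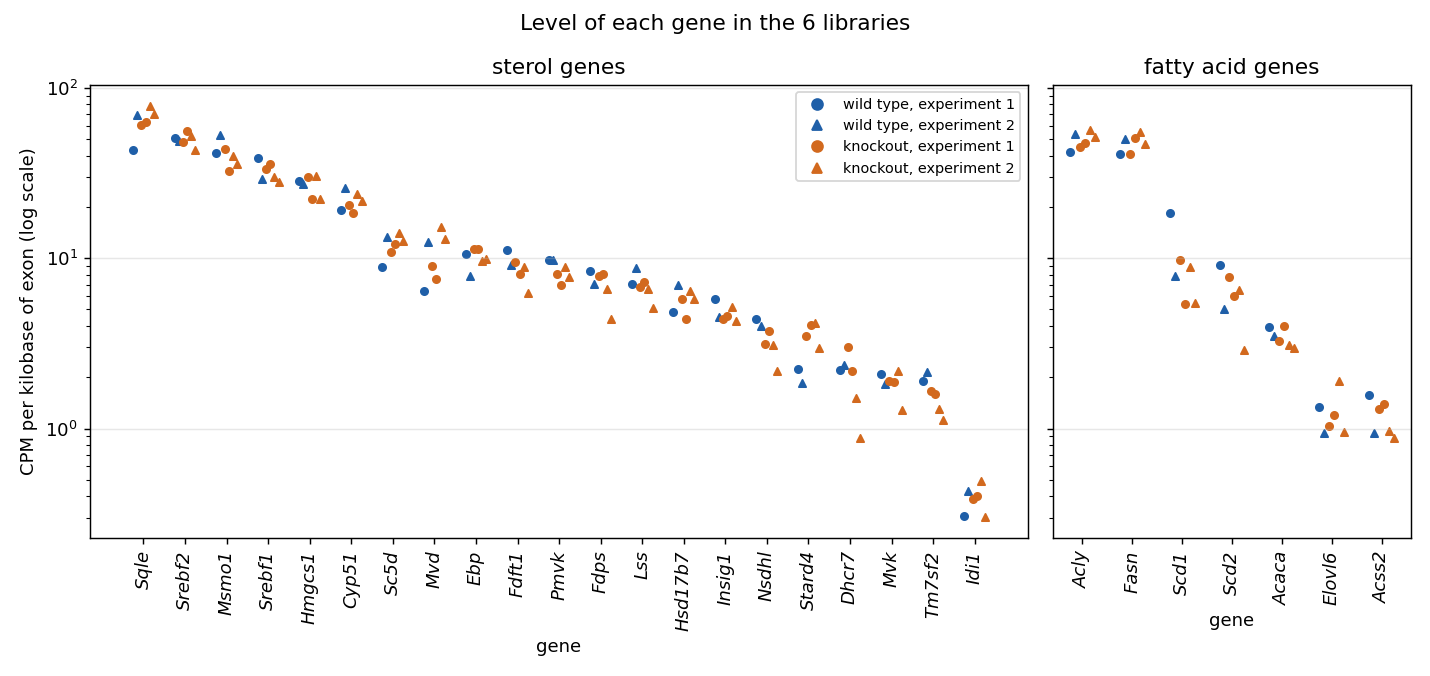
Level of each gene in CPM per kilobase of exon on a log axis; each point is 1 library, blue for wild type and orange for knockout, circles for experiment 1 and triangles for experiment 2. Sterol genes run from Sqle (mean 64.1) to Idi1 (mean 0.386) and fatty acid genes from Acly (49.2) to Acss2 (1.17), while most genes' libraries lie close together.

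The fold between the highest and the lowest of the 6 libraries was 1.30 to 3.44 for the sterol genes, with a median of 1.64. It was 1.34 to 3.43 for the fatty acid genes, with a median of 1.79, and the median over all tested genes with a count in every library was 1.55. Srebf2 varied least, from 197 to 255 CPM. Dhcr7 varied most among sterol genes and Scd1 most among fatty acid genes.

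The promoters of the sterol genes shared a short motif. RefSeq promoter windows (GRCm38.p6, 250 bases before the start to 50 after it) were given for 17 of the 21 sterol genes, 81.0%; Fdps, Fdft1, Sqle and Stard4 had none. The motif CCAAT, read on both strands (ATTGG on the other) and known as the binding site of NF-Y, a common partner of SREBP, occurred in at least 1 window of 17 of 17 genes, against 41.1% of all 27025 genes with a window and 42.9% of the 9807 among them that were tested here. Pmvk, Dhcr7 and Srebf1 have 2 or 3 windows each, and by window the motif stood in 18 of 22, or 81.8%, against 37.4% of all windows. The GC-rich motif GGGCGG occurred in 16 of 17, against 38.2% of all genes and 68.7% of tested genes. CACGTG occurred in 4 of 17 (8.09% of all genes and 11.6% of tested genes). The sterol-element letters TCACNCCAC occurred in 1 of 17, Hmgcs1 (1.44% of all genes and 1.39% of tested genes). No hit of one motif overlapped a hit of another. Of the 7 fatty acid genes, 5 had a window, 71.4%, so a count over that group would be void and none is given. A match is only a run of letters, and its absence says only that these letters are not in this window.

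The 160 bases before the start are shown for 4 sterol genes. Hmgcs1 is the HMG-CoA synthase at the head of the pathway and the only one with the sterol-element letters. Mvd, the mevalonate diphosphate decarboxylase, was the only member that edgeR called with all libraries and the low-count filter, in the fit between experiments. Msmo1 and Nsdhl act one after the other in removing the C4 methyl groups of the sterol. In that order the stretches lie at chr13:119690191-119690350 (plus strand), chr8:122443423-122443582 (minus), chr8:64733579-64733738 (minus) and chrX:72918361-72918520 (plus). Capitals mark CCAAT or ATTGG and, in Hmgcs1, also TCACCCCAC. Hmgcs1 holds 1 CCAAT motif in this stretch, Mvd 2, Msmo1 3 and Nsdhl 2.
Hmgcs1: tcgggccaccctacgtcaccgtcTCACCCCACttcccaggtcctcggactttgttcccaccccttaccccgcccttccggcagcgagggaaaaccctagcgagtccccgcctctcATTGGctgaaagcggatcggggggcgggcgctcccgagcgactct
Mvd: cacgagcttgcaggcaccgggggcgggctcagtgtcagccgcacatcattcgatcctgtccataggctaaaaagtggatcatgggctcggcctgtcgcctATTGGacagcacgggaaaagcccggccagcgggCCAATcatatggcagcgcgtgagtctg
Msmo1: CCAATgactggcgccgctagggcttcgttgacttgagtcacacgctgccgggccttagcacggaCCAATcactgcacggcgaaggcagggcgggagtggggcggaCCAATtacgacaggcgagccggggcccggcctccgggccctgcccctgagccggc
Nsdhl: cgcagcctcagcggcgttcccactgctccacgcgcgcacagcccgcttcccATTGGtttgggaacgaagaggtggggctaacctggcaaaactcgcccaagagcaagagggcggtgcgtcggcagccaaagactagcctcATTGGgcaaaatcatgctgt

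The genes of the mevalonate steps showed no call between genotypes. Hmgcs1 stood at 92.7 and 89.2 CPM in the wild type and at 97.9, 73.0, 99.6 and 72.6 CPM in knockout 1 to 4. The 2 higher knockout libraries were above both wild-type libraries and the 2 lower ones below, so the groups overlapped (log2 fold change -0.08, SE 0.16). Pmvk, phosphomevalonate kinase, stood at 14.6 and 14.7 CPM in the wild type and at 12.2, 10.5, 13.4 and 11.7 CPM in the knockout. All 4 knockout libraries lay below both wild-type libraries, and the log2 fold change was -0.29 with an SE of 0.16 (edgeR adjusted p = 0.702). Fdps, which makes farnesyl diphosphate, had 12.2 and 10.4 CPM against 6.45 to 11.8 CPM, and Mvk, mevalonate kinase, 3.47 and 3.04 against 2.13 to 3.59 CPM. The genotypes overlapped for both genes, as they did for Idi1.

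Mvd differed between the experiments and not detectably between the genotypes. It stood at 11.9 CPM in wild type 1 and 23.1 CPM in wild type 2, and at 16.7, 14.0, 28.3 and 24.2 CPM in knockout 1 to 4. All 3 libraries of experiment 2 were above all 3 of experiment 1, in both genotypes. The log2 difference, experiment 2 minus experiment 1 with genotype in the fit, was 0.84 (SE 0.13, 95% interval 0.54 to 1.13, edgeR adjusted p = 0.00858). The call was lost without wild type 1 (adjusted p = 0.103) and without wild type 2 (0.105), at log2 differences of 0.77 in both fits. Against genotype the log2 fold change of the same gene was 0.25 ± 0.34 (SE; adjusted p = 0.948) in the fit without the experiment. In the fit with the experiment it was 0.27 (SE 0.14, edgeR adjusted p = 0.446). Within experiments 1 and 2 the log2 difference between knockout and wild type was 0.36 and 0.18. The gene lies at chr8:122433596-122443422 in mm10.

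The steps from farnesyl units to lanosterol were also without a call. Sqle stood at 119 and 189 CPM in the wild type and at 166, 174, 216 and 192 CPM in the knockout. Wild type 1 was the lowest library and wild type 2 lay inside the knockout range, and the log2 fold change was 0.28 (SE 0.19, adjusted p = 0.812). All 3 libraries of experiment 2 stood above those of experiment 1 for Sqle too, with a log2 difference of 0.40 (SE 0.11) and an edgeR adjusted p of 0.0597. The genotype value of Sqle turned on 1 library: with wild type 1 left out the log2 fold change was 0.0022, and with wild type 2 left out it was 0.65. Fdft1, squalene synthase, had 32 and 26.1 CPM against 17.9 to 27.2 CPM, and Lss, lanosterol synthase, 21.8 and 27.2 against 15.9 to 22.6 CPM. The groups overlapped in both.

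Among the enzymes that turn lanosterol into cholesterol, 2 had every knockout library below both wild-type libraries. Nsdhl stood at 9.76 and 8.81 CPM in the wild type and at 6.92, 8.30, 6.85 and 4.84 CPM in the knockout. The log2 fold change was -0.47 with an SE of 0.23 (edgeR adjusted p = 0.648). Tm7sf2, a sterol C14-reductase, stood at 2.80 and 3.16 CPM against 2.45, 2.37, 1.91 and 1.65 CPM, and its log2 fold change was -0.50 with an SE of 0.27 (adjusted p = 0.709). Together with Pmvk these were 3 of 28 members, 10.7%, where 8.57% of all tested genes had every knockout library below both wild-type libraries. The other direction held for 1 of 28, Stard4, 3.57%, against 7.6% of all tested genes. Both shares are near the background or below it. Tm7sf2 shares 9 bases on the same strand with a neighbouring gene model.

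Msmo1 stood at 75.3 and 96.4 CPM in the wild type and at 80, 58.9, 72.9 and 65.2 CPM in the knockout. Knockout 1 lay between the wild-type libraries and the other 3 below them (log2 fold change -0.31, SE 0.15, edgeR adjusted p = 0.659). Dhcr7 had the widest spread: 6.24 and 6.62 CPM in the wild type and 8.52, 6.16, 4.23 and 2.48 CPM in knockout 1 to 4. Knockout 1 was the highest library and knockout 4 the lowest. Within experiment 1 the log2 difference between knockout and wild type was 0.21 and within experiment 2 it was -1.01. The test of that difference between experiments gave an adjusted p of 0.998 in edgeR.

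Cyp51, the lanosterol demethylase, stood at 83.7 and 112 CPM in the wild type and at 89.7, 80.3, 103 and 94 CPM in the knockout. Hsd17b7, a sterol ketoreductase, stood at 22.2 and 31.8 CPM against 26.2, 20.2, 29.5 and 26.3 CPM. In both genes the genotypes overlapped (log2 fold changes -0.09, SE 0.15, and -0.08, SE 0.20; edgeR adjusted p = 0.955 and 0.968), and every library of experiment 2 was above those of experiment 1. The log2 difference between experiments was 0.28 for Cyp51 (SE 0.10, adjusted p = 0.115) and 0.35 for Hsd17b7 (SE 0.13, adjusted p = 0.151). Ebp, a sterol isomerase, ranged from 13.6 to 19.7 CPM and Sc5d, a sterol desaturase, from 19.9 to 31.7 CPM, with overlap of the genotypes.

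The regulators Srebf2, Srebf1 and Insig1 varied by at most 1.39-fold over the 6 libraries. Srebf2 stood at 231 and 224 CPM in the wild type and at 221, 255, 239 and 197 CPM in the knockout. The wild-type libraries lay inside the knockout range. Srebf1, which mainly serves fatty acid genes, stood at 167 and 124 CPM against 143, 153, 129 and 120 CPM, again with overlap. Its log2 fold change was -0.10 (SE 0.15), and all libraries of experiment 2 were below all of experiment 1 (log2 difference -0.31, SE 0.09, edgeR adjusted p = 0.0781). Insig1, the retention factor and itself an SREBP target, had 15.2 and 12 CPM against 11.3 to 13.7 CPM.

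Stard4, a small protein that carries sterols between membranes, was the sterol gene with the lowest p between genotypes. It stood at 6.63 and 5.54 CPM in the wild type (mean 6.09 ± 0.769, SD, n = 2). In the knockout it stood at 10.5, 12.1, 12.4 and 8.82 CPM (mean 10.9 ± 1.65, SD, n = 4). Every knockout library was above both wild-type libraries, and the log2 difference was 0.76 within experiment 1 and 0.90 within experiment 2. The log2 fold change was 0.84 (SE 0.21, 95% interval 0.37 to 1.32; fold 1.80, 1.29 to 2.49) at an edgeR adjusted p of 0.266. With the experiment as a block the adjusted p was 0.0619. DESeq2, which called 1.92% of the genes it gave an adjusted p, called Stard4 at an adjusted p of 0.0149 and no other member. With 1 library left out at a time the edgeR log2 fold change stayed between 0.72 and 1 and its adjusted p between 0.216 and 0.597. Its counts were 144 to 368 per library.

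**Figure D3:**
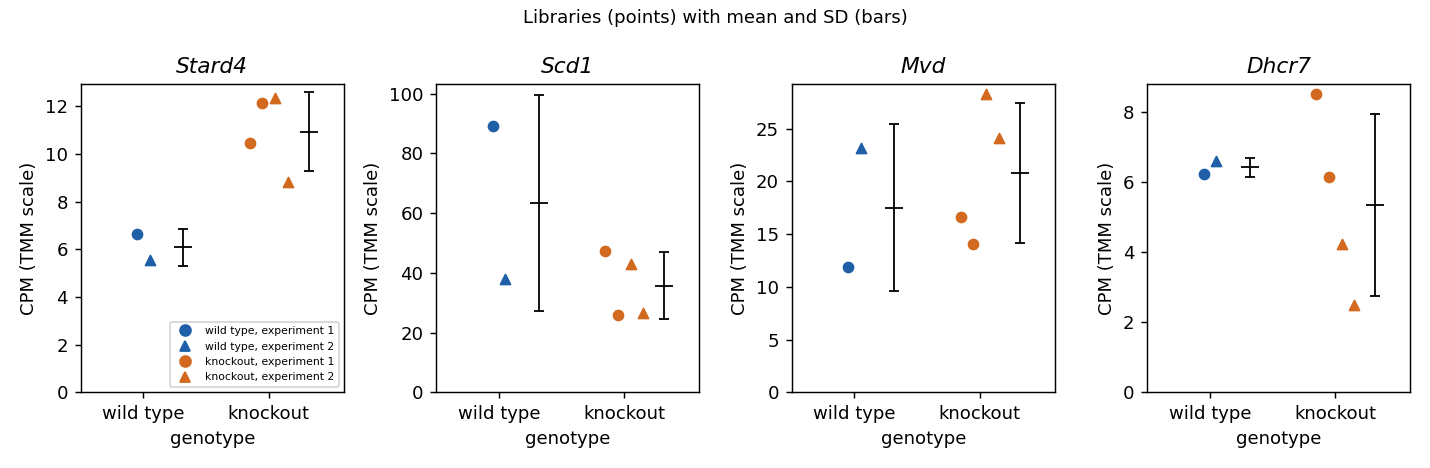
CPM of Stard4, Scd1, Mvd and Dhcr7 by genotype; points are libraries (circles experiment 1, triangles experiment 2) and bars beside them give the mean and SD. The 4 knockout libraries of Stard4 (8.82 to 12.4) lie above both wild-type libraries, wild type 1 sets the high Scd1 mean, Mvd splits by experiment, and Dhcr7 is lowest in knockout 4.

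Acly, Fasn and Acaca varied by at most 1.35-fold over the 6 libraries, the other 4 fatty acid genes by 1.79- to 3.43-fold. Acly stood at 186 and 237 CPM in the wild type and at 198, 209, 250 and 227 CPM in the knockout, and Fasn at 405 and 495 against 408, 506, 546 and 468 CPM. In both genes wild type 1 was the lowest library and knockout 3 the highest, and the genotypes overlapped. Acaca stood at 35.4 and 31.6 CPM against 29.3, 36.0, 28.1 and 26.9 CPM, and the log2 fold change was -0.16 with an SE of 0.15 (adjusted p = 0.907). Acss2 stood at 4.44 and 2.66 CPM against 3.68, 3.95, 2.75 and 2.48 CPM, and Elovl6 at 7.94 and 5.62 against 6.16, 7.11, 11.3 and 5.67 CPM. Knockout 3 alone was high for Elovl6.

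The desaturase Scd1 was the fatty acid gene with the lowest p and rested on 1 library. It stood at 89.0 and 37.8 CPM in the wild type (mean 63.4 ± 36.2, SD, n = 2) and at 47.4, 26.0, 43.0 and 26.5 CPM in the knockout (mean 35.7 ± 11.1, SD, n = 4). Wild type 1 was far above the other 5 libraries, and wild type 2 lay inside the knockout range. The log2 fold change was -0.83 (SE 0.36, edgeR adjusted p = 0.58). Leaving out wild type 1 brought it to -0.06, and leaving out wild type 2 to -1.31. Within experiment 1 the log2 difference was -1.34 and within experiment 2 it was -0.16 (test of the difference, edgeR adjusted p = 0.998). Wild type 1 was also the library with the most Fabp4, an adipocyte and endothelial lipid carrier, at 42.7 CPM against 11.5 CPM in wild type 2 and 5.2 to 8.5 CPM in the knockout. The adipocyte markers summed highest in wild type 1, at 95 CPM against 66 CPM in wild type 2 and 50 to 81.1 CPM in the knockout. So did the endothelial markers, at 163 CPM against 67.8 CPM and 44.6 to 58.5 CPM. Of the adipocyte markers, Adipoq and Plin1 were near 0 in wild type 1 (3 and 2 counts). Csn2, a milk casein, was at 27.0 CPM in wild type 1, 5.08 CPM in wild type 2 and at most 0.597 CPM in the knockout. The part of these genes and lists in the Scd1 value was not tested.

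Scd2, the paralog next to Scd1 on chromosome 19, stood at 49.5 and 27.4 CPM in the wild type and at 42.4, 32.5, 35.4 and 15.8 CPM in the knockout. Wild type 1 was again the highest, and knockout 4 was the lowest. The log2 fold change was -0.29 (SE 0.37, adjusted p = 0.94), and it was 0.22 without wild type 1, in a fit without the experiment. Within experiments 1 and 2 the log2 difference was -0.41 and -0.21. Scd1 lies at chr19:44394450-44407709 and Scd2 at chr19:44293676-44306862 in mm10. Reads that could not be placed on one of the paralogs were not counted, so their split is uncertain, and Scd2 also shares 61 bases with a microRNA gene.

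Knockout 4 was the lowest of the 6 libraries for 12 of 21 sterol genes and 3 of 7 fatty acid genes, together 53.6% of the members. It was the lowest for 15.5% of all tested genes. In the wider lists described below it was the lowest for 20.7% of 29 other sterol genes and 15.2% of 33 other fatty acid and lipid genes. Over the marker lists it was the lowest for 22.2% (milk) to 66.7% (leukocyte, 3 tested) of the genes tested. Its median deviation from each gene's mean log2 CPM was -0.21 over the sterol genes and -0.32 over the fatty acid genes, and close to 0 over all genes. The deviation was largest in Dhcr7 and Scd2 and was also seen in Fdps, Nsdhl, Mvk, Tm7sf2 and Fdft1. Knockout 3, of the same genotype and experiment, had median deviations of 0.08 and 0.15. Without knockout 4 the median log2 fold change of the sterol genes was -0.04. Knockout 4 had 25963166 counts, between those of knockout 2 (25347967) and wild type 2 (27342539), and the lowest sums of fibroblast, basal, luminal and leukocyte markers. Its 8 fibroblast markers summed to 114 CPM against 140 to 168 CPM in the other 5 libraries. Its 10 basal markers summed to 14681 CPM against 15039 to 17310 CPM, its 12 luminal markers to 2168 against 2187 to 2406 CPM and its 7 leukocyte markers to 80 against 87.7 to 139.8 CPM. For the other marker lists knockout 4 was not the lowest. Its adipocyte markers summed to 81.1 CPM and its milk markers to 259 CPM, the highest of the knockout libraries for both lists. Its endothelial markers summed to 46 CPM, against 44.6 CPM in knockout 1. The part of any of these lists in the pattern was not tested.

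**Figure D4:**
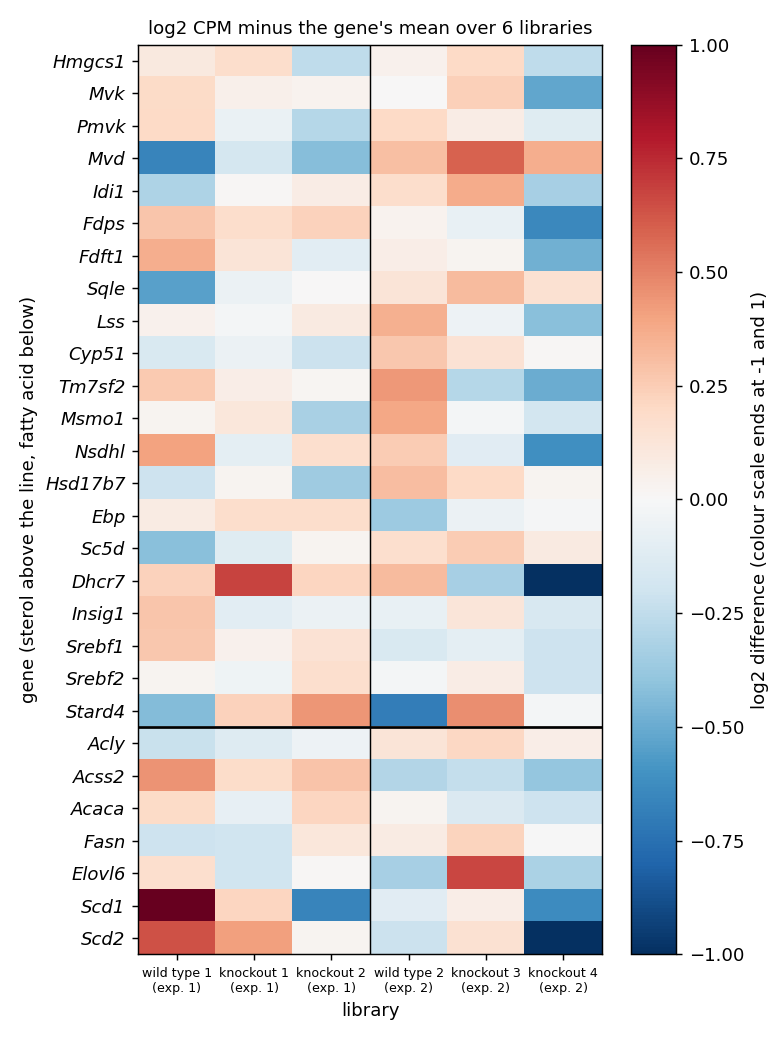
Log2 CPM of each gene minus its own mean over 6 libraries, with libraries ordered by experiment; red is higher and blue lower, and the colour scale ends at -1 and 1. Knockout 4 is blue for most sterol genes (median -0.21), Mvd and Sqle split between the experiments, and Scd1 is highest in wild type 1.

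Between the experiments, 1 of 21 sterol genes and 0 of 7 fatty acid genes passed the test. Mvd was the one, higher in experiment 2, where 3.39% of all tested genes were called higher and 3.04% lower. The 3 libraries of experiment 2 lay above all 3 of experiment 1 for 6 members, Mvd, Sqle, Cyp51, Hsd17b7, Sc5d and Acly, which is 21.4% of 28 where 12.6% of all genes did. They lay below for Fdps, Ebp, Srebf1 and Acss2, 14.3% where 13.5% of all genes did. The median log2 difference between experiments was -0.07 over the sterol genes, -0.22 over the fatty acid genes and -0.02 over all genes. Of these 10 genes Mvd alone passed in that fit, and the edgeR adjusted p of Fdps, for one, was 0.179. What distinguished the experiments, including the handling of cells and libraries, cannot be told apart from the day code. No gene passed a test of whether the genotype difference itself differed between experiments in edgeR (586 genes at an unadjusted p under 0.05; DESeq2 called 11).

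The wider pathway lists gave 0 calls between genotypes too, and 0 of their genes had an unadjusted p under 0.05. Of 30 other sterol genes (isoprenoid steps, SREBP processing, LXR targets, uptake and storage), 29 had a row and were tested, with a median log2 fold change of -0.04. The lowest p in the list were those of Npc2, a lysosomal cholesterol carrier (log2 fold change 0.24, SE 0.10), Abca1, a cholesterol exporter (-0.34, SE 0.17), and Erlin1, a part of SREBP retention (-0.25, SE 0.14). None passed adjustment in edgeR, the lowest adjusted p being 0.585. Between experiments 3 of the 29 passed, 2 higher and 1 lower in experiment 2, where the shares over all tested genes were again 3.39% and 3.04%. Por, which passes electrons to Cyp51 and Sqle, was higher in experiment 2 (log2 difference 0.49, SE 0.11, adjusted p = 0.0321). Por stood at 458, 501 and 607 CPM in experiment 1 and at 718, 724 and 748 CPM in experiment 2. Vldlr, a lipoprotein receptor, was also higher (0.53, adjusted p = 0.0464), and Cyb5r3, another electron donor, lower (-0.39, adjusted p = 0.0412).

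Of 35 other fatty acid and lipid genes, 33 were tested, 0 were called between genotypes and the median log2 fold change was -0.02. Pgd, a source of NADPH, had a log2 fold change of -0.48 (SE 0.21), Elovl1, an elongase of very long chains, -0.21 (SE 0.12) and Dgat1, which completes triglycerides, 0.27 (SE 0.16), all without a call in edgeR (lowest adjusted p = 0.587). Between experiments 4 of the 33 passed, 1 higher and 3 lower, where 3.39% of all tested genes were called higher and 3.04% lower. Elovl4, an elongase, was higher in experiment 2 (log2 difference 0.43, adjusted p = 0.04), and Pgd (-0.47, adjusted p = 0.0422), the desaturase Fads1 (-0.50, adjusted p = 0.0278) and the phosphatidate phosphatase Lpin1 (-0.94, adjusted p = 0.048) were lower.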

How the data were processed

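The labels' protocols name Illumina's TruSeq Stranded kit for mRNA. The submitters' processing notes name bcl2fastq 2.17, STAR 2.5.2b, Subread 1.5.1 and mm10. Per the file headers, the authors made the deposited raw read counts per gene with featureCounts 1.5.1 and strand option 2; its command shows no option for reads that match several places or genes, so those were not counted.

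The 6 files were joined on the gene identifier, scaled by TMM and filtered with edgeR's filterByExpr, leaving 13925 of 23337 genes; the other 9412 were not tested. Genotype was tested with edgeR 4.0.16 (quasi-likelihood, Benjamini-Hochberg over all genes; limma 3.58.1, R 4.3.3), with 4 residual degrees of freedom. The experiment difference was tested with genotype in the fit, and their interaction in another design. CPM values use TMM-scaled totals. Alternatives were the experiment as a block, DESeq2 1.42.0, limma-voom, RLE scaling, no low-count filter and each library left out. The script was tested on simulated data. Libraries of the same experiment deviated together from their group means (r = 0.25 to 0.41 in the 4 wild-type and knockout pairs), so the experiment, not the title number, was used as the block; with only 2 wild-type libraries these values are mirrored across experiments and are a weak check.

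Members were given by name; they and the other lists were chosen with earlier results of these data known. All 28 members are named. Values are given in full for members called in any fit or alternative, for the 4 sterol and 3 fatty acid genes with the lowest p, and for the most and least abundant per kilobase of each group; other lists are named by calls and their 3 lowest p-values. The genes named for their range, overlap or experiment split were picked after their values were seen, and so was knockout 4 as the library described apart.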

Additional observations from a re-analysis of the deposited data

Results flagged for a closer look

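Each of the 28 members was examined for a knockout library far from the other 3 (Dixon, 4 libraries) and for a genotype difference that differed between the experiments, and 0 met either criterion.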

How the results depend on the processing

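With 2 wild-type pools, 1 library can turn a small difference. Between genotypes, 217 genes were called with the replicate block by experiment, 262 by DESeq2 and 3 to 15 with 1 library left out, against 11 in the main test. DESeq2 called 1 sterol member, Stard4, and no setting called a fatty acid member. In the replicate block fit without knockout 1, Stard4 (adjusted p = 0.0191) and Msmo1 passed among 940 genes called, an alternative chosen after seeing the data; the block changed no other member's call. Between experiments DESeq2 called 1473 genes, and leaving out 1 library gave 38 (without wild type 1) to 1838 (without knockout 1). Sterol members called there numbered 2 without the low-count filter and 3 by DESeq2, Sqle among them in both (adjusted p = 0.0214 and 0.017), and 0 to 5 with 1 library left out. DESeq2 added Srebf1, and edgeR without knockout 1 called Cyp51, Hsd17b7, Mvd, Sqle and Srebf1. Fatty acid members numbered 0 to 1, Scd2 without knockout 3. The interaction gave 7 genes without the filter and 11 by DESeq2, alternatives added after seeing the data. The cause of these moves was not tested.

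Of 140 values of members' genotype differences under other settings, 138 kept their direction and side of the threshold. Srebf2 turned to -0.0023 with limma-voom. With 1 library left out, 146 of 168 kept both and 22 reversed, in 16 members: Hmgcs1 (-0.16 to 0.0026), Mvk (-0.22 to 0.013), Mvd (-0.13 to 0.81), Idi1 (-0.10 to 0.36), Cyp51 (-0.27 to 0.13), Hsd17b7 (-0.30 to 0.20), Ebp (-0.0063 to 0.45), Sc5d (-0.081 to 0.49), Insig1 (-0.32 to 0.047), Srebf1 (-0.29 to 0.15), Srebf2 (-0.037 to 0.068), Acly (-0.082 to 0.25), Acss2 (-0.46 to 0.29), Fasn (-0.020 to 0.25), Elovl6 (-0.10 to 0.45), Scd2 (-0.65 to 0.22). None of the 16 was called. The fits with 1 library left out held no term for the experiment. Without 1 wild-type library they set the wild type of 1 experiment against knockouts of both, so they mix genotype with experiment. Mvd, at -0.13 without wild type 1, had log2 differences of 0.36 within experiment 1 and 0.18 within experiment 2. The median log2 fold change ran from -0.16 to -0.04 for sterol genes and from -0.24 to -0.02 for fatty acid genes.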
